A study of Mus musculus with 6 samples.

Results

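Myelin is the lipid-rich membrane that oligodendrocytes, the myelinating glia of the central nervous system, wrap around axons. The genes examined here cover its structural proteins, the enzymes that make or supply its lipids, the transcription factors that switch the programme on, and carriers, a receptor and stress proteins that are abundant in these cells. Oligodendrocytes arise from precursor cells, and Sox10 and Myrf act early and late in that course, with Myrf needed for the myelin genes to be expressed.

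The set held 32 oligodendrocyte and myelin genes of the 53379 gene identifiers in the count files. They were taken by symbol from a list that was chosen with earlier results of these data known. All 32 matched an identifier, were tested and had reads in all 6 libraries. The libraries came from mouse cerebral cortex, 3 labelled GTF2ird1-/-, that is with both copies mutated (replicates 5, 6 and 7) and 3 from wild type animals (replicates 1, 3 and 4), all C57BL/6 and 2 months old. The title of the study names Gad2+ neurons as the material, while the labels name the tissue; the sources used here do not say how cells were isolated or which part of Gtf2ird1 is mutated. Gtf2ird1 encodes a transcription factor. Its level, in CPM (counts scaled to library size, here after TMM normalization), was 49.6, 40.6 and 48.7 CPM in knockout replicates 5, 6 and 7, against 23.3, 31.5 and 52.6 CPM in wild type replicates 1, 3 and 4. The targeted transcript was therefore not lower in the libraries labelled knockout, and a count over the whole gene does not check those labels. The names knockout and wild type follow the labels throughout. Neuronal markers were detected in every library, but 19 microglial markers summed to at least 32881 CPM in each, against at most 929 CPM for 10 pan-neuronal markers.

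Total gene counts lay between 16685959 and 30544144 in the knockout libraries and between 13627501 and 28933624 in the wild type libraries. Ribosomal RNA took up to 6.20% of gene counts in the knockout libraries and up to 17.5% in the wild type libraries, with that maximum in wild type replicate 3. Knockout replicates 5 and 6 held reads of Y-linked genes and almost none of Xist, while knockout replicate 7 and all 3 wild type libraries showed the reverse. Sex and genotype are thus partly confounded. The labels do not say that libraries came from separate animals, so each p-value reflects the spread among these libraries alone.

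The summed level of the 32 genes was similar in 4 of the 6 libraries and much lower in wild type replicates 3 and 4. It was 2256.5, 1944 and 2274 CPM in knockout replicates 5, 6 and 7, against 2299, 618 and 227 CPM in wild type replicates 1, 3 and 4. Wild type replicate 1 thus lay with the knockout libraries, and the spread within wild type was larger than any difference between wild type replicate 1 and the knockout libraries. As a share of all gene counts, the genes took 0.251%, 0.195% and 0.239% in knockout replicates 5, 6 and 7, and 0.229%, 0.0501% and 0.0241% in wild type replicates 1, 3 and 4. In bulk RNA, fewer oligodendrocytes and less RNA per oligodendrocyte cannot be told apart.

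**Figure D1:**
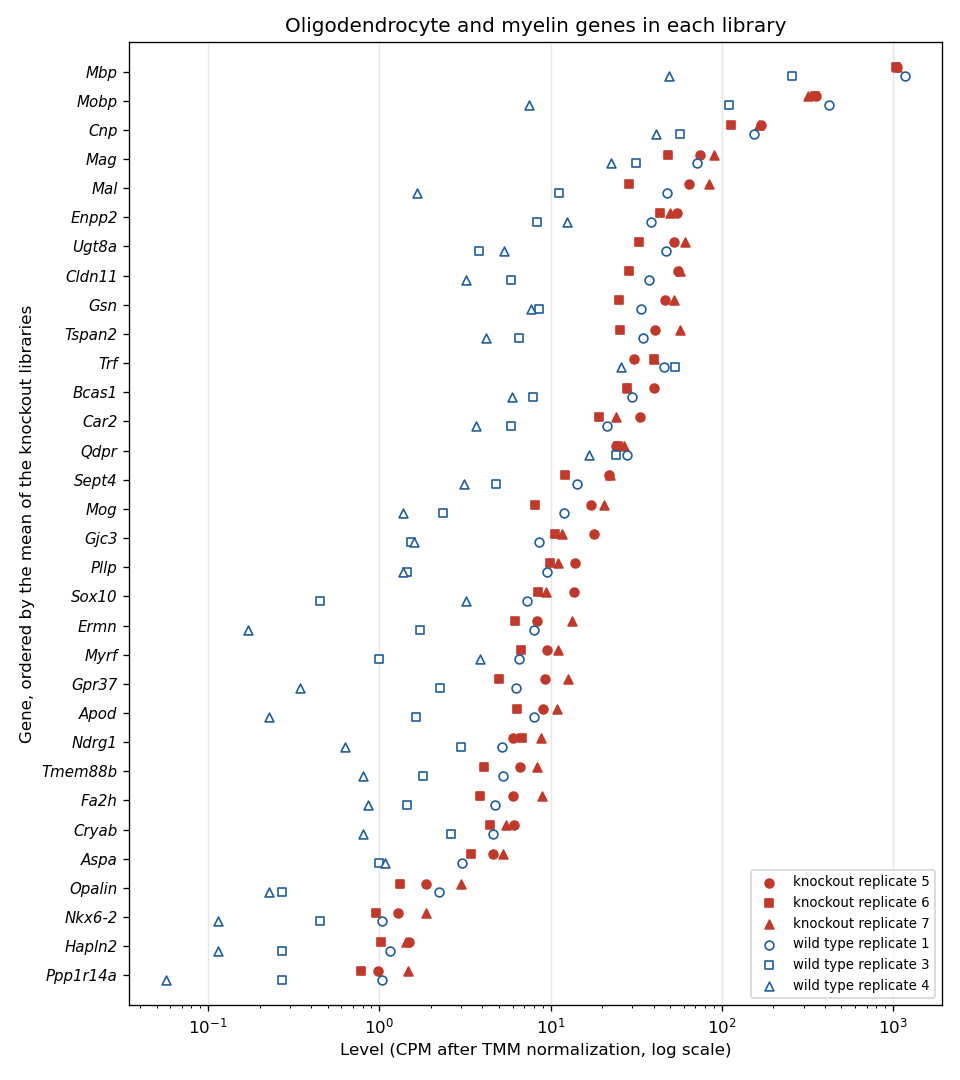
Level of each of the 32 genes in each library, in CPM after TMM normalization on a log axis, with genes ordered by the mean of the knockout libraries; filled red marks are knockout replicates and open blue marks are wild type replicates. For 31 genes the open squares and triangles of wild type replicates 3 and 4 lie left of all other marks, while the open circle of wild type replicate 1 lies among or beside the knockout marks.

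Between the groups, no gene of the set passed the threshold of an adjusted p of 0.05 (edgeR quasi-likelihood test, Benjamini-Hochberg adjustment over 17221 genes), higher or lower. Over all genes, 0.00581% passed as higher in knockout and 0.0% as lower. The adjusted p-values of the 32 genes ran from 0.637 to 0.860 by edgeR, and DESeq2 also called 0 of them, beside 0.0813% of all genes called higher by that tool, and put 31 of 32 above 0, beside 47.7%. At an unadjusted p under 0.05 there were 4 genes of the set, Gjc3, Sept4, Aspa and Enpp2, all higher in knockout, where 4.48% of all genes had such a p in that direction. The log2 fold change, knockout over wild type, was above 0 for 31 of 32 genes, beside 46.3% of all genes, and its median was 1.30, beside -0.03 over all genes. With ribosomal, small, haemoglobin and mitochondrial RNA genes removed before the fit, the median was 1.29.

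The size of that difference rested largely on wild type replicates 3 and 4. They were the lowest 2 libraries for 31 of 32 genes, an order found in 15.9% of all genes tested, and Trf was the exception. Wild type replicate 1 lay above the lowest knockout library for 25 genes (78.1%), beside 70.7% of all genes. It lay above all 3 knockout libraries for 4 genes (12.5%), beside 29.9% of all genes. In CPM after TMM normalization, the groups did not overlap for 7 genes, all higher in knockout, beside 6.34% of all genes. These were Pllp, Gjc3, Aspa, Enpp2, Sox10, Myrf and Ndrg1. In TPM further genes did not overlap, such as Sept4 and Bcas1, at 10.2 and 20.3 in wild type replicate 1. Their lowest knockout values were 10.7 and 23.0 TPM. The place of wild type replicate 1 against the knockout libraries thus depended on the scaling for such genes. Among the knockout libraries, replicate 6 was the lowest for 28 of 32 genes, beside 32.7% of all genes. Knockout replicate 7 was the highest of all 6 libraries for 19 genes of the set (59.4%), beside 4.95% of all genes. Reads outside genes were most frequent in wild type replicates 3 and 4, where the set was lowest. They made up 46.8%, 51.2% and 50.1% of all reads in knockout replicates 5, 6 and 7, against 40.0%, 57.6% and 58.2% in wild type replicates 1, 3 and 4. The share of ambiguous reads was 8.63% in knockout replicate 6 and 14.5% in wild type replicate 3, and no other library exceeded 2.69%. The part of either in the result was not tested.

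With wild type replicates 3 and 4 left out together, an alternative chosen after the values were seen, the median log2 fold change was 0.25. In that fit 25 genes were above 0, beside 50.7% of all genes, and none was called, beside 0.0312% of all genes. With wild type replicate 1 left out instead, the median was 2.46, and 12 of 32 genes were called higher by edgeR where 1.77% of all genes were; 31 were above 0, beside 47.7% of all genes. These 12 were Mog, Pllp, Cldn11, Tspan2, Gjc3, Cnp, Bcas1 and Sept4 among the structural genes, Ugt8a, Enpp2 and Car2 among the enzymes, and Gsn. The size of the difference and the number of calls therefore changed with the wild type libraries that entered the comparison.

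**Figure D2:**
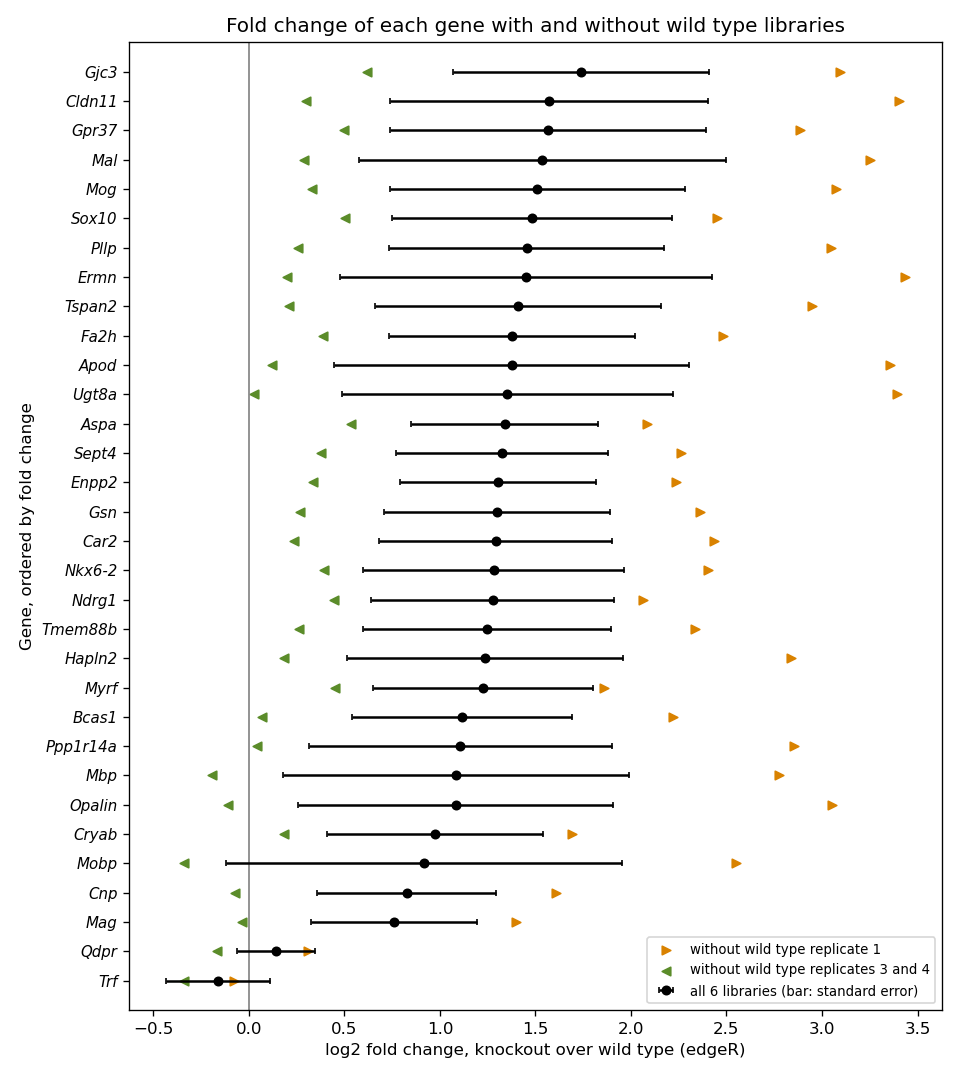
Log2 fold change of each gene, knockout over wild type (edgeR), with all 6 libraries (black, bar: standard error), without wild type replicate 1 (orange) and without wild type replicates 3 and 4 (green). For all 32 genes the orange mark lies to the right of the black one and the green mark to the left; green marks fall below 0 for 7 genes, and for Trf all 3 marks do.

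The 17 structural genes encode proteins of the myelin sheath and its junctions. All 17 had a log2 fold change above 0, with a median of 1.25, and none passed the test. Mbp, myelin basic protein, which holds the cytoplasmic faces of the myelin membrane together, had the highest level per length of the whole set. Counted per exon length and scaled to a common total (TPM), Mbp averaged 398 TPM in the knockout libraries and 148 TPM in the wild type libraries, and ranked 227 among protein-coding genes by its mean over all 6. It had 1057, 1036 and 1051 CPM in knockout replicates 5, 6 and 7, against 1175, 257 and 49.5 CPM in wild type replicates 1, 3 and 4. In CPM the knockout values were nearly equal, and wild type replicate 1 exceeded each of them. In TPM, wild type replicate 1, at 354, lay below knockout replicates 5, 6 and 7, at 410, 381 and 404. The top place of wild type replicate 1 thus depended on the scaling. Its log2 fold change was 1.08 ± 0.91 (SE, adjusted p = 0.721 by edgeR), and -0.19 without wild type replicates 3 and 4.

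Mobp, a small basic protein of compact myelin (ENSMUSG00000032517.16, plus strand, chr9:120149707-120181484 in GRCm38), followed Mbp in level per length. It had 357, 349.6 and 319 CPM in the knockout libraries, against 425, 110.0 and 7.47 CPM in wild type replicates 1, 3 and 4. In CPM, wild type held both the highest and the lowest value. In TPM, wild type replicate 1, at 158, lay below knockout replicates 5 and 6, at 171 and 159. The log2 fold change was 0.92 ± 1.04 (SE, adjusted p = 0.785 by edgeR), turning to -0.34 without wild type replicates 3 and 4. Cnp, the cyclic nucleotide phosphodiesterase of non-compact myelin, ranged less, with 169, 113 and 166 CPM in the knockout libraries and 154, 56.8 and 41.3 CPM in wild type replicates 1, 3 and 4. Its log2 fold change was 0.83 ± 0.47 (SE, adjusted p = 0.645 by edgeR with all libraries, 0.0385 without wild type replicate 1). Mag, the adhesion lectin on the membrane facing the axon, was similar, at 74.9, 48.6 and 90.3 CPM in the knockout libraries and 71.8, 31.6 and 22.6 CPM in wild type replicates 1, 3 and 4. Cnp and Mag had the smallest fold changes of the structural genes, and both turned just below 0 without wild type replicates 3 and 4, at -0.070 and -0.035.

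Gjc3, which encodes a connexin of oligodendrocytes (ENSMUSG00000056966.7, minus strand, chr5:137953461-137963098), had the largest fold change of the set. It had 17.96, 10.6 and 11.7 CPM in the knockout libraries, against 8.58, 1.54 and 1.60 CPM in wild type replicates 1, 3 and 4. Every knockout library lay above every wild type library, by a narrow margin over wild type replicate 1. The means were 13.4 ± 3.95 CPM in knockout and 3.91 ± 4.05 CPM in wild type (SD, n = 3 each), and the log2 fold change was 1.74 ± 0.67 (SE, adjusted p = 0.637 by edgeR with all libraries, 0.0263 without wild type replicate 1). Sept4, a septin of the myelin cytoskeleton, had 22.0, 12.2 and 22.3 CPM in the knockout libraries, against 14.3, 4.80 and 3.13 CPM in wild type replicates 1, 3 and 4. Wild type replicate 1 lay within the knockout range in CPM. In TPM it lay just below that range, at 10.2 against 10.7 in knockout replicate 6. The log2 fold change was 1.33 ± 0.55 (SE, adjusted p = 0.637 by edgeR with all libraries, 0.0414 without wild type replicate 1).

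The other structural genes that passed without wild type replicate 1 were likewise lowest in wild type replicates 3 and 4. Cldn11, the claudin of the myelin tight junctions, had 55.5, 28.8 and 57.0 CPM in the knockout libraries, against 37.7, 5.88 and 3.19 CPM in wild type replicates 1, 3 and 4. Its log2 fold change of 1.57 ± 0.83 (SE, adjusted p = 0.638 by edgeR) became 3.40 without wild type replicate 1 (edgeR adjusted p of 0.0282). Mog, a glycoprotein of the outer face of the sheath, had 17.2, 8.14 and 20.6 CPM in the knockout libraries and 12.1, 2.35 and 1.37 CPM in wild type replicates 1, 3 and 4. For Mog the estimate was 1.51 ± 0.77 on the log2 scale (SE, adjusted p = 0.637 by edgeR with all libraries, 0.0414 without wild type replicate 1). Pllp, a tetraspan proteolipid, had 13.9, 9.99 and 11.0 CPM in the knockout libraries and 9.55, 1.45 and 1.37 CPM in wild type replicates 1, 3 and 4, with no overlap between the groups. Its estimate was 1.45 ± 0.72 (SE, adjusted p = 0.637 by edgeR with all libraries, 0.0243 without wild type replicate 1). An antisense gene, Gm45767, covers 54.2% of the exon bases of Pllp, so its counts are uncertain where strand was not used; for Bcas1, Nkx6-2, Cryab and Qdpr such overlaps cover between 11.7% and 18.6%.

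Tspan2, a tetraspanin, had 40.6, 25.5 and 56.6 CPM in the knockout libraries, against 34.9, 6.52 and 4.22 CPM in wild type replicates 1, 3 and 4. Wild type replicate 1 lay inside the knockout range, and the log2 fold change of 1.41 ± 0.75 (SE, adjusted p = 0.638 by edgeR) became 2.95 without it (adjusted p = 0.0338 by edgeR). Bcas1, a marker of cells that are starting to myelinate, had 40.0, 27.8 and 28.1 CPM in the knockout libraries, against 29.95, 7.87 and 5.93 CPM in wild type replicates 1, 3 and 4. Here too wild type replicate 1 lay among the knockout libraries in CPM. In TPM it lay below all of them, at 20.3 against 23.0 in knockout replicate 6. The log2 fold change of 1.11 ± 0.58 (SE, adjusted p = 0.637 by edgeR) became 2.22 without wild type replicate 1 (adjusted p = 0.0266 by edgeR).

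The remaining structural genes did not pass with or without wild type replicate 1. Mal, a raft proteolipid of membrane sorting, had 64.6, 28.7 and 84.2 CPM in the knockout libraries, against 47.6, 11.2 and 1.65 CPM in wild type replicates 1, 3 and 4. Ermn, a cytoskeletal protein of mature oligodendrocytes, had 8.31, 6.22 and 13.4 CPM in the knockout libraries, against 8.03, 1.72 and 0.171 CPM in wild type replicates 1, 3 and 4, the last from 3 counts. Both spanned more than an order of magnitude within wild type alone. Opalin, a glycoprotein of the inner loop and paranodes, Tmem88b, a membrane protein, Hapln2, a link protein of the matrix at nodes of Ranvier, and Ppp1r14a, an inhibitor of myosin phosphatase, had log2 fold changes between 1.08 and 1.25. Apart from Tmem88b, these had at most 4 counts in each of wild type replicates 3 and 4. At this depth the upper limit behind a count of 0, taken as 3 counts, corresponds to 0.271 CPM in wild type replicate 3 and 0.171 CPM in wild type replicate 4.

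The 6 enzymes include those of myelin lipid synthesis and supply. All 6 had a log2 fold change above 0, with a median of 1.32, and none passed the test with all libraries. Aspa, aspartoacylase, which splits N-acetylaspartate, had the smallest unadjusted p of the set, at 0.0278. It had 4.61, 3.41 and 5.27 CPM in the knockout libraries, against 3.02, 0.995 and 1.08 CPM in wild type replicates 1, 3 and 4, with no overlap. Its log2 fold change was 1.34 ± 0.49 (SE, adjusted p = 0.637 by edgeR with all libraries, 0.0502 without wild type replicate 1). Enpp2, which encodes autotaxin, the enzyme that makes lysophosphatidic acid, had 54.7, 43.5 and 50.1 CPM in the knockout libraries, against 38.5, 8.32 and 12.5 CPM in wild type replicates 1, 3 and 4. These groups did not overlap either, and the log2 fold change was 1.30 ± 0.51 (SE, adjusted p = 0.637 by edgeR with all libraries, 0.0243 without wild type replicate 1).

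Ugt8a makes galactosylceramide, the main glycolipid of myelin. It had 52.5, 32.7 and 60.6 CPM in the knockout libraries, against 47.0, 3.80 and 5.36 CPM in wild type replicates 1, 3 and 4. Wild type replicate 1 lay inside the knockout range, and the log2 fold change of 1.35 ± 0.87 (SE, adjusted p = 0.669 by edgeR) became 3.39 without it (adjusted p = 0.0243 by edgeR) and 0.025 without wild type replicates 3 and 4. Car2, a carbonic anhydrase, had 33.3, 19.2 and 24.0 CPM in the knockout libraries, against 21.2, 5.88 and 3.65 CPM in wild type replicates 1, 3 and 4. For Car2 the log2 fold change was 1.29 ± 0.61 (SE, adjusted p = 0.637 by edgeR with all libraries, 0.0371 without wild type replicate 1). Fa2h, which hydroxylates the fatty acids of these lipids, had a log2 fold change of 1.38 ± 0.64 (SE, adjusted p = 0.637 by edgeR) and did not pass without that library either.

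Qdpr, the reductase that recycles tetrahydrobiopterin and is expressed in many cell types, was nearly flat. It had 24.2, 24.6 and 26.9 CPM in the knockout libraries, against 27.8, 24.0 and 16.8 CPM in wild type replicates 1, 3 and 4. It was also the enzyme with the highest level per length, at 45.5 TPM in knockout and 34.4 TPM in wild type on average, and its log2 fold change was 0.14 ± 0.20 (SE, adjusted p = 0.834 by edgeR).

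The 3 transcription factors were low in wild type replicates 3 and 4, Sox10 and Myrf in another order than most myelin genes. Sox10 encodes a transcription factor of the oligodendrocyte lineage (ENSMUSG00000033006.9, minus strand, chr15:79154908-79165240). It had 13.6, 8.44 and 9.42 CPM in the knockout libraries, against 7.26, 0.452 and 3.19 CPM in wild type replicates 1, 3 and 4. The groups did not overlap, and replicate 3, not replicate 4, was the lowest wild type library. The log2 fold change was 1.48 ± 0.73 (SE, adjusted p = 0.637 by edgeR). Myrf, the factor required for myelin gene expression in maturing oligodendrocytes (ENSMUSG00000036098.15, minus strand, chr19:10208272-10240748), had 9.52, 6.70 and 11.1 CPM in the knockout libraries, against 6.57, 0.995 and 3.88 CPM in wild type replicates 1, 3 and 4. It had the same lowest library, its highest wild type value lay just under the lowest knockout value, and its log2 fold change was 1.22 ± 0.58 (SE, adjusted p = 0.637 by edgeR). Nkx6-2, a homeobox factor of myelinating cells, was low throughout, with 1.29, 0.957 and 1.87 CPM in the knockout libraries and 1.04, 0.452 and 0.114 CPM in wild type replicates 1, 3 and 4. None of the 3 passed in any fit that left out 1 library.

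RefSeq promoter windows (GRCm38.p6, 250 bases before to 50 after the start) were found for 21 of the 32 genes, in 26 windows, and were searched on both strands for the motif letters of Myrf (CTGGCAC or CTGGTAC) and of Sox factors (ACAAAG or ACAATG). No matches overlapped. A Myrf match was present in 5 of the 21 genes (23.8%), beside 8.10% of 27025 genes with a window, and a Sox match in 9 (42.9%), beside 31.7%. The genes with a Myrf match were Mag, Cnp, Hapln2, Mog and Opalin. A match is a description of these letters and was not tested for binding. Shown here are 3 of those genes, Mobp with 6 Sox matches, and Qdpr as the nearly flat gene without a match; only bases outside GENCODE exons are given, 5′ to 3′ along the gene, with matches in capitals (CTTTGT and GTGCCAG are the reverse complements of ACAAAG and CTGGCAC).
Mag (chr7:30914923-30915172, minus strand): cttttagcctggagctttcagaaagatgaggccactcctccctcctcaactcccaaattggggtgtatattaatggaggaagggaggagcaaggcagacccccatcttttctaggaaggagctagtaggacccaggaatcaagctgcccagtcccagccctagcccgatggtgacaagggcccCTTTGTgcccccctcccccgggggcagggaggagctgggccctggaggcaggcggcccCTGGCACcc
Cnp (chr11:100574689-100574903, plus strand): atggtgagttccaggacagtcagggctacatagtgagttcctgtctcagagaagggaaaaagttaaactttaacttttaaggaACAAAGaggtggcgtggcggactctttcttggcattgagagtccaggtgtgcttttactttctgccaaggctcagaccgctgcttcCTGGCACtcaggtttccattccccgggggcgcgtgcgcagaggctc
Hapln2 (chr3:88027584-88027761, minus strand): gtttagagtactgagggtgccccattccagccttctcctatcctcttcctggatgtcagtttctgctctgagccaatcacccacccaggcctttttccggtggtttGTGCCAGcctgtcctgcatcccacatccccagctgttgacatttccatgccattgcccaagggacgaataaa
Mobp (chr9:120149492-120149706, plus strand): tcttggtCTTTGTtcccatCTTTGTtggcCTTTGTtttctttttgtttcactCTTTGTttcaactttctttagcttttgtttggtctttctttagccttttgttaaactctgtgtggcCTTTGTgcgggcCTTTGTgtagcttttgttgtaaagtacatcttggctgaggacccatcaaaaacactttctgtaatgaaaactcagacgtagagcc
Qdpr (chr5:45450237-45450479, minus strand): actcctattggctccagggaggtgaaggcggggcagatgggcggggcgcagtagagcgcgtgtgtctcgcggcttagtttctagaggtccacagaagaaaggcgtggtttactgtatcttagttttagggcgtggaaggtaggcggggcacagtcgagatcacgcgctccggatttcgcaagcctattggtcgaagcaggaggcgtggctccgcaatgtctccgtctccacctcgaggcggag
In Mag the Myrf match began 9 bases before the RefSeq start used here, and in Cnp and Hapln2 it began 81 and 144 bases before it. All 6 Sox matches of Mobp were on the strand opposite to the gene, between 243 and 115 bases before its start. Mag, Cnp and Hapln2 with a Myrf match, and Mobp and Qdpr without one, shared the same lowest libraries, wild type replicates 3 and 4. That order was found in 31 of 32 genes of the set.

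The 6 genes for carriers, a receptor and stress proteins had a median log2 fold change of 1.29, with 5 of 6 above 0. Gsn, gelsolin, which severs actin filaments, had 46.5, 25.2 and 52.9 CPM in the knockout libraries, against 33.9, 8.51 and 7.69 CPM in wild type replicates 1, 3 and 4. Its log2 fold change was 1.30 ± 0.59 (SE, adjusted p = 0.637 by edgeR with all libraries, 0.0378 without wild type replicate 1). Ndrg1, a cytoplasmic protein of the N-myc downstream regulated family, had 6.05, 6.82 and 8.76 CPM in the knockout libraries, against 5.21, 2.99 and 0.627 CPM in wild type replicates 1, 3 and 4. The groups did not overlap, and the log2 fold change was 1.28 ± 0.64 (SE, adjusted p = 0.637 by edgeR). Gpr37, a G protein-coupled receptor that restrains oligodendrocyte differentiation in mice, Apod, the lipid carrier apolipoprotein D, and Cryab, a small heat shock protein, had log2 fold changes of 1.57, 1.38 and 0.97, and none passed with or without wild type replicate 1.

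Trf, transferrin, the iron carrier that oligodendrocytes secrete (ENSMUSG00000032554.15, minus strand, chr9:103204001-103230444), departed from the rest of the set. It had 30.7, 40.4 and 40.4 CPM in the knockout libraries, against 46.1, 53.0 and 25.6 CPM in wild type replicates 1, 3 and 4. In CPM after TMM normalization, wild type replicate 3, in which nearly all other genes of the set were low, held the highest Trf value. In TPM, knockout replicates 6 and 7 lay above wild type replicate 3, so its top place depended on the scaling. It still lay above knockout replicate 5 and wild type replicates 1 and 4 in TPM. The log2 fold change was -0.16 ± 0.27 (SE, adjusted p = 0.860 by edgeR), the only one below 0. Of its exon bases, 63.5% are shared with Gm20425 on the same strand, which had a count of 0 in all libraries, so the Trf count is uncertain. Per length Trf averaged 36.0 TPM in knockout and 33.0 TPM in wild type. Gsn averaged 42.6 TPM in knockout and 14.1 TPM in wild type, so Trf was the highest of these 6 genes over all libraries together but not in knockout.

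The 2 low wild type libraries were low in different ways. Between wild type replicates 4 and 3, 6 genes of the set were higher and 26 lower in replicate 4, in CPM after TMM normalization. Sox10 was 7.05 times higher in replicate 4 (95% exact interval 2.85 to 22.6, from 56 and 5 counts) and Myrf 3.89 times (2.04 to 8.16). Enpp2 was 1.51 times higher (1.18 to 1.94). These intervals cover counting error of 2 libraries only, and not the choice of scaling. In the other direction, Mobp in replicate 4 was 0.0678 of its level in replicate 3 (0.0562 to 0.0813), Mal 0.147 (0.0947 to 0.222) and Mbp 0.193 (0.179 to 0.208), whereas Cnp was 0.727 (0.652 to 0.810) and Mag 0.716 (0.619 to 0.830). The TMM factors were 0.811 in replicate 3 and 1.06 in replicate 4. In TPM, Cnp was 35.2 in replicate 3 and 40.3 in replicate 4, and Mag 17.5 and 19.7. Mobp, at 36.2 and 3.87 TPM, and Sox10, at 0.334 and 3.72 TPM, kept their directions. The split into higher and lower genes thus depended on the scaling.

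**Figure D3:**
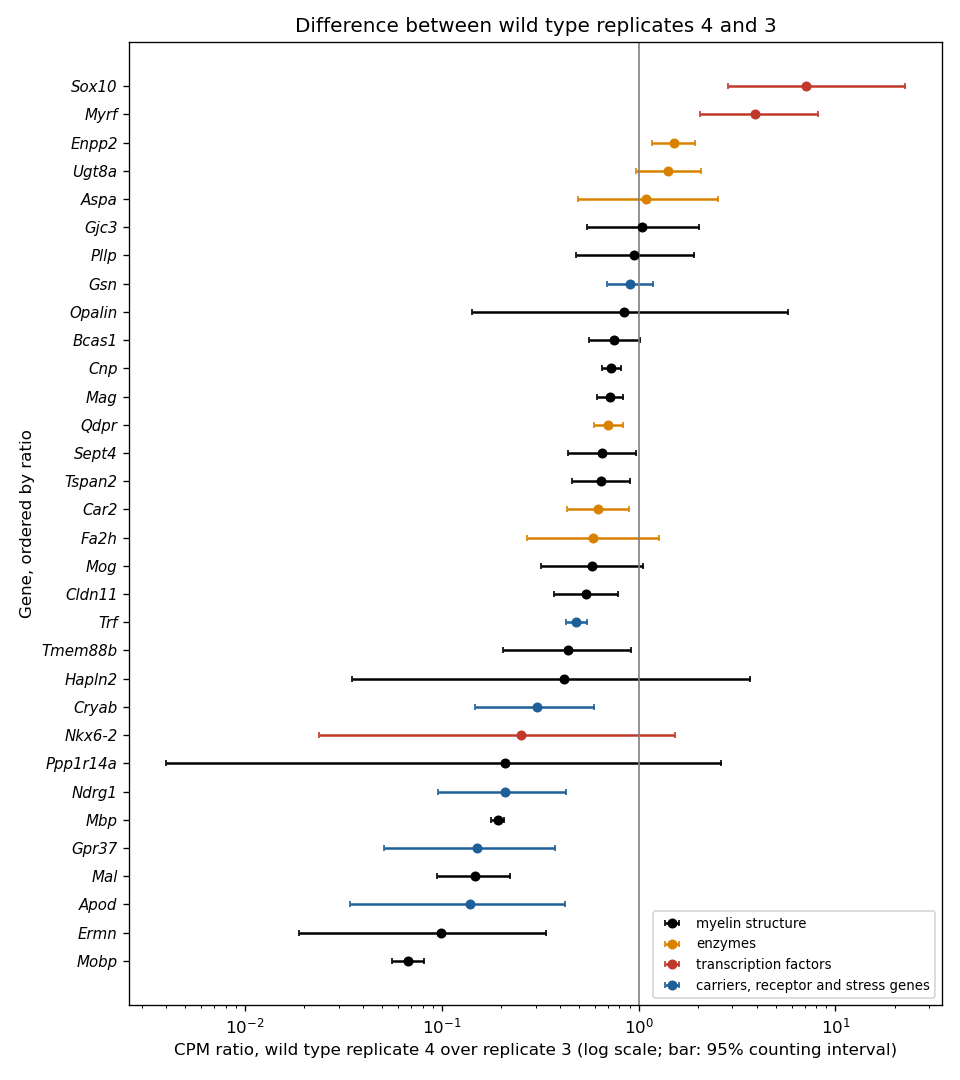
Ratio of each gene's CPM in wild type replicate 4 to that in wild type replicate 3, on a log axis, with 95% exact intervals for counting error and colours for the 4 role groups. Sox10 and Myrf lie at 7.05 and 3.89 to the right of equality, and Mobp lies at 0.0678 at the far left, so the genes did not move by a common factor.

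The composition of the set differed along with its level. Mbp and Mobp together made up 62.7%, 71.3% and 60.3% of the summed CPM in knockout replicates 5, 6 and 7, against 69.6%, 59.3% and 25.0% in wild type replicates 1, 3 and 4. The ratio of Mbp to Cnp in CPM, which can be compared between libraries but not read as a ratio of molecules, was 6.25, 9.16 and 6.35 in knockout replicates 5, 6 and 7, against 7.64, 4.51 and 1.197 in wild type replicates 1, 3 and 4. Wild type replicate 4 stood apart in both measures. The sum of the other 30 genes was 843, 559 and 904 CPM in the knockout libraries, against 699, 252 and 171 CPM in wild type replicates 1, 3 and 4, so the lower level in replicates 3 and 4 did not rest on Mbp and Mobp alone.

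Relative to the mean of the set in each library, the SD over the 6 libraries of a gene's log2 ratio had a median of 0.45. Hapln2, Tmem88b, Car2, Fa2h, Sept4 and Ppp1r14a kept closest to that mean, with SDs from 0.10 to 0.21. Of these, Hapln2 and Ppp1r14a had 1 to 3 counts in wild type replicates 3 and 4, values close to the pseudocount of 0.1 CPM, which pulls such ratios in. Trf, Mobp, Sox10 and Qdpr were farthest from it, with SDs of 1.26, 1.19, 1.13 and 1.09. Among 453 other genes that averaged at least 5 CPM and varied with an SD of at least 1 on the log2 scale, the 10 with the smallest such SD were Epas1, Adora1, Tst, Ppp1r16b, Pcsk6, Limch1, Gabbr2, Grid1, Kcna2 and Kcnj16, from 0.18 to 0.28 over the 6 libraries. Epas1, a hypoxia-inducible transcription factor gene, had 42.2, 29.4 and 40.8 CPM in the knockout libraries, against 31.2, 10.8 and 4.16 CPM in wild type replicates 1, 3 and 4. None of these 10 was in any of the cell type lists. Those lists are short, so the cells that express these 10 genes were not determined here.

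Further genes of the lineage were examined as lists by stage. Of 30 tested further myelin genes, 25 had a log2 fold change above 0 and none passed, with a median of 0.79. Adamts4, a matrix protease of mature oligodendrocytes, had 18.3, 12.9 and 18.5 CPM in the knockout libraries and 12.6, 5.07 and 5.93 CPM in wild type replicates 1, 3 and 4. Of 10 genes of newly formed oligodendrocytes, 8 were above 0 (median 0.66), among them Enpp6, with 26.4, 14.5 and 15.4 CPM in the knockout libraries and 13.1, 0.633 and 3.36 CPM in wild type replicates 1, 3 and 4. Enpp6, like Sox10 and Myrf, was lowest in replicate 3.

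All 12 precursor genes and 6 of 9 lineage factors were lowest in wild type replicate 3, the lowest library for Sox10. The 12 precursor genes each had a log2 fold change above 0 (median 1.12) and none passed. Cspg4, the proteoglycan that marks precursors, had 36.5, 25.8 and 16.7 CPM in the knockout libraries, against 20.2, 1.36 and 8.66 CPM in wild type replicates 1, 3 and 4. All 12 were lower in replicate 3 than in replicate 4, with a median ratio of replicate 4 over 3 of 5.92, as were all 9 lineage factors, with a median ratio of 3.03; 8 of those 9 had a log2 fold change above 0 (median 0.79). Olig2, a basic helix-loop-helix factor of the lineage, had 11.1, 6.999 and 5.80 CPM in the knockout libraries and 6.01, 0.995 and 3.02 CPM in wild type replicates 1, 3 and 4, with a log2 fold change of 1.21 ± 0.59 (SE, adjusted p = 0.637 by edgeR). In the peripheral counterpart, the Schwann cell list, 3 of 8 genes were tested, all above 0 (median 0.81), and Pmp2 and Foxd3 had a count of 0 in every library.

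Most astrocyte, vascular and fibroblast markers shared the lowest 2 libraries of the set, while most glutamatergic markers did not. The 16 astrocyte markers, all detected in every library, summed to between 3854 and 7056 CPM in the knockout libraries, against 3933, 685 and 339 CPM in wild type replicates 1, 3 and 4. All 16 had a log2 fold change above 0 (median 1.74, none passed). The 16 endothelial and mural markers summed to between 182 and 257 CPM in the knockout libraries and 193, 119 and 70.8 CPM in wild type replicates 1, 3 and 4, with Kcnj8 at 0 in replicate 3; 14 of 15 tested had a log2 fold change above 0 (median 0.77). The 6 fibroblast markers followed the same order, with sums between 25.6 and 29.7 CPM in knockout and 22.0, 5.34 and 4.44 CPM in wild type replicates 1, 3 and 4, with Lum at 0 in replicate 4 and all 5 tested genes above 0 (median 1.25). The 10 choroid plexus and ependymal markers, of which 3 were tested, summed to between 3.17 and 10.4 CPM in knockout and 5.73, 0.995 and 2.11 CPM in wild type replicates 1, 3 and 4, with Otx2 at 0 in every library. The summed level of 10 glutamatergic markers lay between 77.2 and 118 CPM in knockout, against 122 CPM in wild type replicate 1, 47.7 in replicate 3 and 46.3 in replicate 4. Camk2a, a kinase of excitatory neurons, had 57.6, 13.3 and 3.13 CPM in those 3 libraries. It fell from replicate 1 to replicate 3, as the sum did, and again from replicate 3 to replicate 4, where the sum was nearly unchanged. The order within knockout differed between lists. Knockout replicate 7 was the highest of all libraries for 59.4% of the myelin set, and knockout replicate 5 for 28.1%. For all 16 astrocyte markers knockout replicate 5 was the highest. Knockout replicate 6 was the lowest knockout library for 87.5% of the set and for all 16 astrocyte markers. Of 15 tested vascular markers it was the lowest knockout library for 5, and knockout replicate 5 was for 9. Wild type replicates 3 and 4 were the lowest 2 libraries for 3 of 10 glutamatergic markers, for all 16 astrocyte markers, for 12 of 15 tested vascular markers and for all 5 tested fibroblast markers. Most astrocyte, vascular and fibroblast markers were thus low in the same libraries as the myelin genes, and their part in the result was not tested.

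GABAergic and microglial markers did not follow that order. The 14 GABAergic markers summed to between 555 and 1015 CPM in the knockout libraries, against 343, 234 and 777 CPM in wild type replicates 1, 3 and 4, so wild type replicate 4 was high for these genes while lowest for myelin. Sums of the 10 pan-neuronal markers lay between 498 and 929 CPM in knockout, against 375 CPM in wild type replicate 1, 253 in replicate 3 and 729 in replicate 4, and were also lowest in wild type replicate 3. The 12 precursor markers, at 710 to 1234 CPM in knockout and 534, 172 and 570 CPM in wild type replicates 1, 3 and 4, were likewise lowest in wild type replicate 3. Vcan alone, a matrix proteoglycan, gave 344 CPM of the sum in replicate 4, and the list's median gene there was at 11.6 CPM, against 13.2 CPM in replicate 1; replicates 3 and 4 were the lowest 2 libraries for 7 of the 12. Microglial markers were the most abundant of these lists in every library, with sums between 34781 and 43413 CPM in knockout and 54245, 52167 and 32881 CPM in wild type replicates 1, 3 and 4. All 19 had a log2 fold change below 0, with a median of -0.24, and none passed. With library totals alone as the scaling, and likewise without wild type replicate 1, 7 of the 19 were above 0, at medians of -0.078 and -0.11. Log2 fold changes were above 0 for all 12 tested GABAergic markers (median 0.54), 7 of 10 glutamatergic markers (median 0.12) and 9 of 10 pan-neuronal markers (median 0.51), and none passed.

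**Figure D4:**
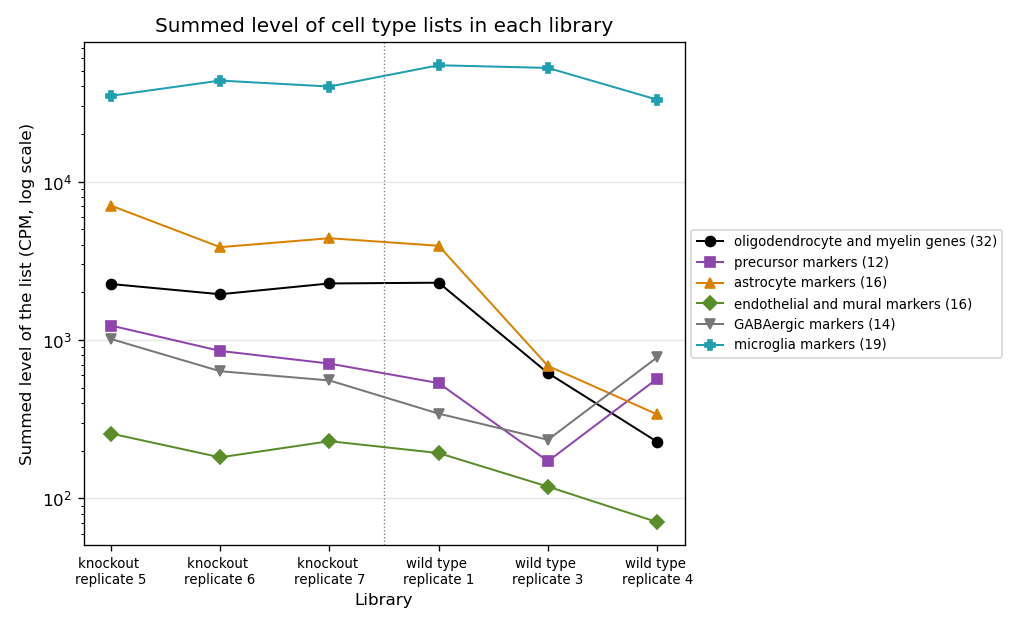
Summed CPM of 6 gene lists in each library on a log axis, with the knockout libraries left of the dotted line; lines only join the points of a list, and numbers in the legend are genes per list. The myelin and astrocyte lists drop in wild type replicates 3 and 4, the precursor and GABAergic lists are lowest in wild type replicate 3, and the microglial list stays between 32881 and 54245 CPM.

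Sex-linked reads gave a further split. Among the libraries with Xist reads alone, knockout replicate 7 against wild type replicates 1, 3 and 4, the median log2 fold change of the set was 1.56 and 31 of 32 genes were above 0, beside 41.0% of all genes. No gene of the set was called there, and 0.0% of all genes were, in a design where the lone knockout library was assumed to vary like the wild type libraries. This alternative was also chosen after the values were seen. A fit with a Y-linked covariate over all 6 libraries also called 0 of 32 genes, with a median of 1.57. The libraries with Y-linked reads belong to the knockout group only, so no such comparison could be made among them.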

How the data were processed

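RNA-seq libraries of mouse cortex, 3 labelled knockout and 3 wild type, were made with a stranded total RNA kit, per the labels' protocols. The deposited values are raw read counts per gene, 1 file per library. Trim Galore 0.60, STAR 2.7, HTSeq 1.31 and the build mm10 are named in the submitters' processing notes; the sources used here give neither the annotation release nor the strand setting, and counts of genes with antisense or overlapping partners are uncertain. Of 53379 identifiers, 53274 matched GENCODE M21. Summary lines that name no gene were left out of totals; reads outside genes were 40.0% to 58.2% and ambiguous reads 1.94% to 14.5% of all reads.

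Counts were tested with edgeR 4.0.16 in R 4.3.3 (TMM, default filter, robust quasi-likelihood F-test, two-sided, Benjamini-Hochberg over 17221 genes, threshold 0.05). The fits were checked on simulated counts, with a pass required only at a small spread between libraries. That check does not cover a spread as wide as that within wild type here. DESeq2 1.42.0, limma-voom 3.58.1, other scalings and filters, removal of each library and a Y-linked covariate were alternatives. Levels are CPM after TMM, and TPM per union of exons; log2 ratios to the mean of the set used a pseudocount of 0.1 CPM. Intervals are exact (Clopper-Pearson based, 95%) and cover counting error only. The members, role groups and cell type lists were chosen with earlier results of these data known, so no test was made over a list. All 32 genes are named; full values went to the smallest p-values and highest level per length in each role group and to genes called under an alternative, and each further list could add up to 3 genes with its smallest p. Of those lists only examples are given.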

Additional observations from a re-analysis of the deposited data

How the results depend on the processing

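With all libraries, 31 of 32 genes were above 0, 0 were called and the median log2 fold change was 1.30. Leaving out each library in turn gave 30 to 32 genes above 0, 0 to 12 called higher, and a median from 0.88 to 2.46; by role, the medians ran from 0.81 to 2.85 with 0 to 8 called (structure), 0.93 to 2.33 with 0 to 3 called (enzymes), 1.0004 to 2.41 (factors), and 0.80 to 2.21 with 0 to 1 called (carriers, receptor and stress genes). All calls came without wild type replicate 1. Without wild type replicates 3 and 4, medians were 0.25 for the set, 0.29 for enzymes and 0.23 for carriers, receptor and stress genes, and the sign turned for Mbp (-0.19), Mobp (-0.34), Mag (-0.035), Opalin (-0.11), Cnp (-0.070) and Qdpr (-0.16). Sign also turned for Trf with library totals alone (0.012); leaving out 1 library, Trf ran from -0.41 to 0.055 and Qdpr from -0.035 to 0.31. The cause was not tested. Library totals alone shifted the median of all genes by 0.14 on the log2 scale, and the set's median then stood 1.32 above it, as with TMM. Over all genes, 1 was called higher and 0 lower; the counts were 14 and 6 with DESeq2, 4 and 1 without the filter, and 6 and 2 without wild type replicates 3 and 4. Protein-coding genes alone and the libraries with Xist reads alone gave 0 higher, the Y-linked covariate gave 1 lower, and leaving out 1 library gave 1 to 306 higher and 0 to 15 lower. In the 150 bases before the start, 4 of 21 genes held a Myrf match and 7 a Sox match. No paired analysis was possible because the groups share no replicate number. With 3 libraries a group, even log2 fold changes up to 1.74 did not pass. Some genes had 1 to 5 counts in wild type replicates 3 and 4. Mbp, with 2835 and 868 counts there, and Gjc3, with 17 and 28, did not pass either. Why no gene passed was not tested. The smallest difference that could be detected was not computed.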
